A study of Mus musculus with 10 samples.

Results

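The genes described here are the proneural factors of the basic helix-loop-helix (bHLH) family, Neurog1, Neurog2, Neurod1, Neurod2, Neurod4, Nhlh1 and Nhlh2, with Eomes, the T-box factor that marks intermediate progenitors. Members were all probes whose single gene symbol in the platform annotation was one of these names. Each of the 8 genes had 1 probe, so 8 of 15063 named genes, and 8 of 21766 probes, are described. The arrays compared the caudal with the rostral part of the mouse neocortex on embryonic day E11.5 in MF1, an outbred stock, and in C57 (C57Bl\6), an inbred strain; no genotype or treatment is given for either. Caudal and rostral ends of the neocortex of 3 embryos made a pool, so animals were not measured singly, and the middle stretch was not hybridised. The caudal and rostral RNA of a pool were amplified and hybridised together on 2-colour arrays. There were 3 MF1 pools (6 arrays) and 2 C57 pools (4 arrays), as every pool went on a pair of arrays with opposite dyes.

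Proneural bHLH proteins pair with E proteins, bind E-box sequences and switch dividing neuroepithelial cells towards neuronal fate. In the cortex Neurog1 and Neurog2 act in progenitors, where they induce the Notch ligand Dll1. Eomes follows in intermediate progenitors, and the Neurod and Nhlh factors in cells that are becoming neurons. At this age the cortical wall is mostly proliferating, and the first neurons are being born.

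Ratios below are on the log2 scale, caudal divided by rostral, so that caudal enrichment has a positive sign, and every array was centred on its median. The direction is likely and not certain, because it reads the deposited ratio as Cy5 over Cy3, which the labels do not state. On that reading the first probe of Nr2f1, a nuclear receptor with a textbook caudal gradient, was positive on 10 of 10 arrays and the second on 8 of 10. The other reading would turn every sign below. The table holds ratios and no intensities, so a gene's level cannot be read from it, and the tissue label could not be checked against the level of cortical markers. A bulk ratio also cannot tell fewer cells of a type from less RNA per cell.

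The arrays were noisy. MF1 arrays gave a ratio for 13723 to 18288 probes and C57 arrays for 20191 to 20870, and the interquartile range of the ratios was 0.65 to 1.25 on MF1 arrays and 0.39 to 0.72 on C57 arrays. Across probes, the 2 turned arrays of a pool had a Pearson correlation of -0.17, -0.25 and -0.23 in MF1 pools 1, 2 and 3, and of 0.03 and -0.14 in C57 pools 1 and 2. The Spearman correlations, which extreme ratios sway less, were -0.08, -0.05 and 0.07 in MF1 and 0.14 and -0.13 in C57. Of 8924 probes measured on all 10 arrays, 1.03% were positive and 0.336% negative on every array once turned to caudal over rostral. As deposited, without turning, 0.471% were positive and 1.31% negative on every array, so ratios constant in sign by dye were at least as frequent as ratios constant by region. The number of arrays limits the precision. The pools were dissected within litters, and whether those of a strain came from more than 1 litter is not clear from the labels, so each p-value reflects only how far these pools differ.

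Promoter windows of Neurod1 and Nhlh2, the members with the largest caudal ratios, and of Nhlh1, the paralog of Nhlh2 whose ratio was near 0, are shown for their E-boxes, the motif that these factors bind. The windows are from RefSeq (GRCm38.p6) and run from 250 bases before to 50 bases after an annotated start on the gene's strand. For Nhlh2 this start lies inside the gene, whose own start is at 102010111. The windows lie at chr2:79456587-79456886 (minus strand), chr3:102009895-102010194 (plus strand) and chr1:172057547-172057846 (minus strand). Capitals mark every CANNTG, a motif that reads the same on both strands.
Neurod1: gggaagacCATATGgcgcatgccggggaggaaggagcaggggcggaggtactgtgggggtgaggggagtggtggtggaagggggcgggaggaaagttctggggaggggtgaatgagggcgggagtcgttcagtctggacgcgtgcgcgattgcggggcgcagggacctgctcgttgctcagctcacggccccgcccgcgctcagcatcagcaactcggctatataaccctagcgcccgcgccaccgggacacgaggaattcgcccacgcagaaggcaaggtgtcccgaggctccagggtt
Nhlh2: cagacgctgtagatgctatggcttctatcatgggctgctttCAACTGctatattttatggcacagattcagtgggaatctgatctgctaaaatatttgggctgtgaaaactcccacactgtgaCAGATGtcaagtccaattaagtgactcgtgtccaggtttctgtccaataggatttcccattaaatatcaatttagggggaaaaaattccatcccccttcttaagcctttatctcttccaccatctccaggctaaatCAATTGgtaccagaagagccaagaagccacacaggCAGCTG
Nhlh1: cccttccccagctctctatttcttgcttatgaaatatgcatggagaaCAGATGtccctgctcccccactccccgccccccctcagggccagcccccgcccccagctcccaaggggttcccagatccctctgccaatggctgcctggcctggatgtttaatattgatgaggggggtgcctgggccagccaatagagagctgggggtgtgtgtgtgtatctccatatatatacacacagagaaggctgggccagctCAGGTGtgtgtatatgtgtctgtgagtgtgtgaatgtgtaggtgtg
The Neurod1 window held 1 E-box, CATATG, far upstream at position -242 from the annotated start. Nhlh2 held 4, at positions -209, -127, 10 and 45, and Nhlh1 held 2, at -203 and 5. One box of Nhlh2 and one of Nhlh1 read CAGATG, a form preferred by Neurog and Neurod proteins. Among 32851 RefSeq windows of this length, 72.3% held at least 1 CANNTG and 17.2% held CAGATG or its reverse, CATCTG. All 8 members had a window. Those of Neurog2 and Eomes held no CANNTG, and CAGATG occurred in those of Neurod2, Nhlh1 and Nhlh2. A match in these letters is a description of the window only.

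Of the 8 members, 5 met the filter for testing, which asked for both dye orders in at least 2 pools of each strain: Neurog2, Eomes, Neurod1, Nhlh1 and Nhlh2. Neurog1, Neurod2 and Neurod4 had too few complete pools. Over the mean of both strains, 4 of the 5 tested members had a positive ratio, against 59.2% of all 11855 tested probes. None passed an adjusted p of 0.05 in limma, as was the case for 0% of all tested probes; 2 members, Neurod1 and Nhlh2, had an unadjusted p under 0.05 on the caudal side, where 2.28% of tested probes did (4.57% on either side). The 5 members had a median ratio of 0.285, beside 0.04 over all tested probes. In MF1 alone Neurod1 had an unadjusted p under 0.05 on the caudal side (3.25% of probes), and in C57 alone Neurod1 and Nhlh2 did (1.09% of probes). In both strains 0% of probes passed limma's adjusted p of 0.05. Both C57 pools were positive for 4 of the 5, against 27.6% of tested probes. These counts cover only members that passed the filter.

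**Figure D1:**
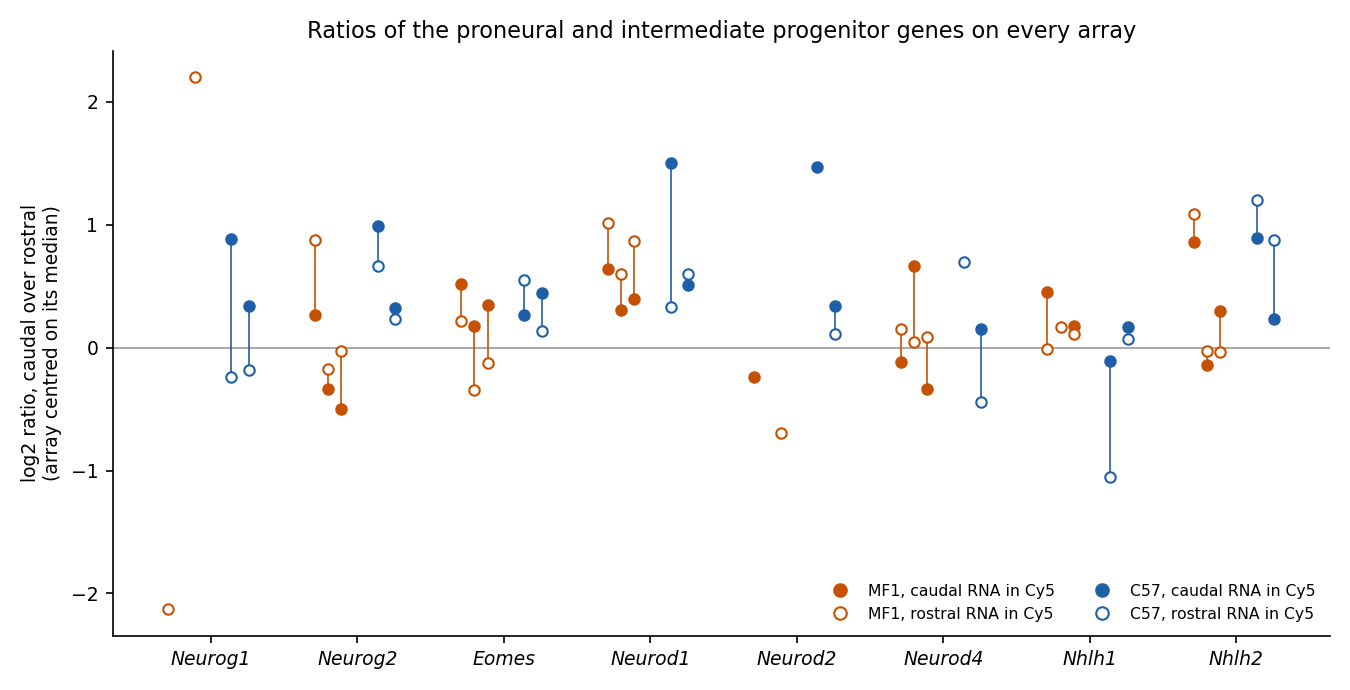
Log2 ratio of caudal over rostral RNA (vertical axis, arrays centred on their medians) of the 8 genes on every array where a ratio was measured, MF1 in orange left of C57 in blue. Filled circles are arrays with caudal RNA in Cy5, open circles those with rostral RNA in Cy5, and a line joins the 2 arrays of a pool; only Neurod1 lies above 0 on all 10 arrays, from 0.309 to 1.502.

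Neurod1, a bHLH factor that carries committed cells into neuronal differentiation, had the ratio most constant in sign of the members. Its size was less constant, with a gap between dye orders of up to 1.17. With caudal RNA in Cy5 its ratios were 0.64, 0.31 and 0.40 in MF1 pools 1, 2 and 3, and 1.502 and 0.508 in C57 pools 1 and 2. With rostral RNA in Cy5 they were 1.02, 0.60 and 0.86 in the MF1 pools, and 0.33 and 0.60 in the C57 pools. All 10 arrays were thus on the caudal side, which 1.03% of the 8924 completely measured probes showed (5.84% were positive in all 5 pool means). The lowest single array was MF1 pool 2 with caudal RNA in Cy5 and the highest was C57 pool 1 in the same dye order, whose partner array was the second lowest. Averaged per pool, the ratios were 0.83, 0.45 and 0.63 in MF1 and 0.92 and 0.55 in C57, so the strains overlapped. The mean over strains was 0.69 ± 0.13 (SE, n = 5 pools), a 1.61-fold higher caudal level, with a 95% interval of 0.36 to 1.01. By limma's unadjusted p, 0.00239, Neurod1 ranked 34 of 11855 probes, and by size of caudal ratio 163. The adjusted p was 0.706 in limma, so the ratio did not pass. An exact sign-change test over the 5 pools, two-sided, gave 0.0625, the smallest p that 5 pools allow.

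Nhlh2, a bHLH factor of newborn neurons, had the second largest ratio and a wide spread between pools. Its ratios with caudal RNA in Cy5 were 0.86, -0.14 and 0.30 in MF1 pools 1, 2 and 3, against 0.89 and 0.23 in C57 pools 1 and 2. With rostral RNA in Cy5 they were 1.085, -0.024 and -0.034 in MF1 and 1.201 and 0.878 in C57. Pool values were 0.97, -0.08 and 0.13 in MF1 and 1.05 and 0.55 in C57. MF1 pool 1 and both C57 pools were caudal, while MF1 pools 2 and 3 lay near 0. The mean over strains was 0.57 ± 0.20 (SE, n = 5 pools), 1.49-fold, with a 95% interval of 0.07 to 1.07. Limma's unadjusted p was 0.0312 and its adjusted p 0.98, and the exact sign-change test, two-sided, gave 0.125.

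Nhlh1, its close paralog, showed no shared side. Ratios with caudal RNA in Cy5 were 0.46 and 0.18 in MF1 pools 1 and 3, with none in MF1 pool 2, and -0.11 and 0.16 in C57 pools 1 and 2. The other dye order gave -0.01, 0.17 and 0.11 in MF1 pools 1, 2 and 3, and -1.05 and 0.07 in C57 pools 1 and 2. A single array, C57 pool 1 with rostral RNA in Cy5, set the lowest value, and the other 8 lay between -0.11 and 0.46. Its mean was -0.02 ± 0.18 (SE, n = 4 pools), with a 95% interval of -0.49 to 0.44 and a limma adjusted p of 0.9995. Without C57 pool 1 the mean was 0.15 and so turned in sign. MF1 pools stood above the C57 pools at 0.22 and 0.145 against -0.58 and 0.12, and 8.01% of tested probes had every MF1 pool above every C57 pool.

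Neurog2, the main proneural factor of cortical progenitors, differed in side between pools. With caudal RNA in Cy5 it had ratios of 0.26, -0.33 and -0.50 in MF1 pools 1, 2 and 3, and of 0.99 and 0.32 in C57 pools 1 and 2. Exchanging the dyes gave 0.88, -0.17 and -0.03 in MF1 and 0.66 and 0.23 in C57. The 2 dye orders of a pool shared their sign in each of the 5 pools, as they did for Neurod1; 8.08% of the 8924 completely measured probes had this. Pool values were 0.57, -0.25 and -0.26 in MF1, and 0.83 and 0.28 in C57. MF1 pool 1 thus lay within the range of the C57 pools, and MF1 pools 2 and 3 lay on the rostral side. Neurog2 had a mean of 0.29 ± 0.19 (SE, n = 5 pools) and a limma adjusted p of 0.98, with an exact sign-change p of 0.3125, two-sided.

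Eomes, which marks the step from radial progenitor to intermediate progenitor, had small ratios throughout. They were 0.52, 0.18 and 0.34 in MF1 pools 1, 2 and 3 with caudal RNA in Cy5, against 0.27 and 0.45 in C57 pools 1 and 2. In the other dye order they were 0.22, -0.35 and -0.12 in MF1 and 0.55 and 0.14 in C57. All 5 arrays with caudal RNA in Cy5 were positive, but 2 of the 5 others, both of MF1, were negative. Pool values of 0.37, -0.085 and 0.11 in MF1 and 0.41 and 0.29 in C57 gave a mean of 0.24 ± 0.13 (SE, n = 5 pools), 1.18-fold. Its limma adjusted p was 0.98 and its exact sign-change p 0.125, two-sided.

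**Figure D2:**
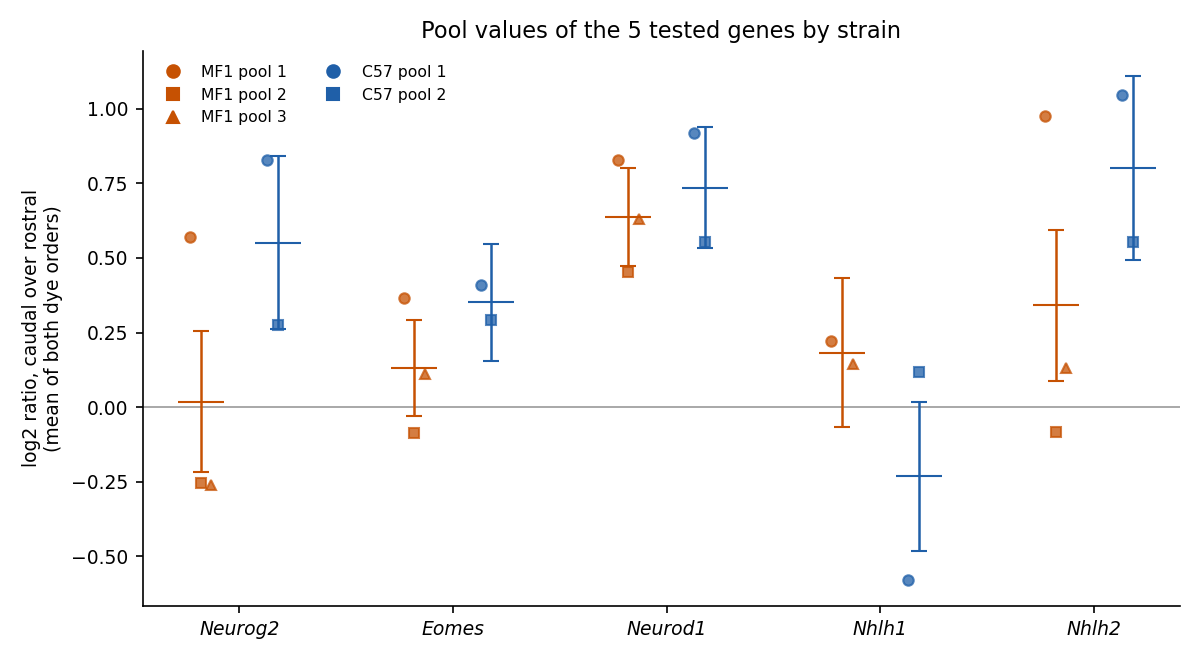
Log2 ratio of caudal over rostral RNA (vertical axis, mean of both dye orders) of the 5 tested genes, with MF1 pools in orange left of C57 pools in blue. Horizontal bars and error bars are limma's strain estimate and SE; MF1 pools 2 and 3 lie below MF1 pool 1 and both C57 pools for Neurog2, Eomes and Nhlh2, and Neurod1 stays above 0.45 in every pool.

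Neurog1, the partner of Neurog2 in cortical progenitors, was measured on 6 of 10 arrays. The only MF1 ratios were -2.127 in pool 1 and 2.199 in pool 3, both with rostral RNA in Cy5. In C57 it had 0.88 and 0.34 with caudal RNA in Cy5 and -0.24 and -0.18 with rostral RNA in Cy5, so its sign followed the dye in both pools. Neurod2, a factor of maturing neurons, was measured on 5 arrays. It gave -0.24 in MF1 pool 1 and -0.69 in MF1 pool 3, each on a single array, against 1.47 on a single array of C57 pool 1 and 0.34 and 0.11 in C57 pool 2. The MF1 ratios of Neurod2 were all negative and the C57 ratios all positive, and no more than 1 pool had both dye orders. Neurod4, a bHLH factor of early differentiating cells, had 9 ratios from -0.44 to 0.70. Its complete pools stood at 0.02, 0.36 and -0.12 in MF1 and at -0.14 in C57 pool 2, and the dye orders differed in sign in 3 of these 4 pools. With incomplete pools kept, the means were 0.12 ± 0.82 for Neurog1 (SE, n = 4 pools), 0.19 ± 0.29 for Neurod2 (n = 4) and 0.18 ± 0.19 for Neurod4 (n = 5), each smaller than its SE.

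The members were then set against each other within pools, a comparison chosen after their values were seen. Neurod1 exceeded Neurog2 in 5 of 5 pools, by 0.26, 0.71 and 0.89 in MF1 pools 1, 2 and 3 and by 0.09 and 0.28 in C57 pools 1 and 2. It also exceeded Eomes in 5 of 5, by 0.46 ± 0.11 (SD, n = 5 pools), and Nhlh1 in 4 of 4, by 0.76 ± 0.50 (SD). Nhlh2 exceeded Neurog2 in 5 of 5 pools, by 0.29 ± 0.10 (SD). Neurod1 minus Nhlh2 was -0.145, 0.535 and 0.499 in MF1 pools 1, 2 and 3 and -0.129 and 0.00 in C57 pools 1 and 2, so the gap was wide in MF1 pools 2 and 3 only. By mean ratio over both strains the order was Neurod1, Nhlh2, Neurog2, Eomes and Nhlh1, and most neighbours in it did not differ beyond their spread between pools. Neurod1 minus Nhlh2 averaged 0.15 ± 0.34, and Neurog2 minus Eomes 0.01 ± 0.31 (SD, n = 5 pools). Nhlh2 minus Eomes averaged 0.31 ± 0.31 (SD, n = 5 pools) and was only 0.003 and 0.02 in MF1 pools 2 and 3. The last place of Nhlh1 rested on C57 pool 1. Eomes minus Nhlh1 was 0.146 and -0.034 in MF1 pools 1 and 3 and 0.99 and 0.176 in C57 pools 1 and 2, and Neurog2 minus Nhlh1 was 0.35 and -0.406 in MF1 and 1.408 and 0.159 in C57. Without C57 pool 1 the mean ratio of Nhlh1 was 0.1498 and that of Neurog2 0.1473.

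Whether the regional ratio differs between the strains was asked with the interaction of region and strain, MF1 minus C57. Among the tested members, 4 of 5 had a lower ratio in MF1, as did 51.2% of all tested probes. Neurog2 averaged 0.02 ± 0.24 in MF1 and 0.55 ± 0.29 in C57 (SE, n = 3 and 2 pools), so MF1 minus C57 was -0.53 with a 95% interval of -1.46 to 0.40. Nhlh2 averaged 0.34 ± 0.25 in MF1 and 0.80 ± 0.31 in C57, leaving -0.46 (interval -1.45 to 0.53). For Eomes the values were 0.13 ± 0.16 in MF1 and 0.35 ± 0.20 in C57, and the difference -0.22 (interval -0.85 to 0.41). Neurod1 was alike by its point estimates, at 0.64 ± 0.17 in MF1 and 0.74 ± 0.20 in C57, with a difference of -0.10 and an interval of -0.75 to 0.55; the difference turned to 0.0828 without C57 pool 1. Nhlh1 went the other way, with 0.18 ± 0.25 in MF1, -0.23 ± 0.25 in C57 and a difference of 0.41 (interval -0.52 to 1.34). No member and 0% of tested probes passed an adjusted p of 0.05 in limma for this difference (adjusted p 0.999 for each member), and 2.38% of probes had an unadjusted p under 0.05, none of them a member. The MF1 pools were themselves unlike, pool 1 lying above pools 2 and 3 for Neurog2, Eomes, Neurod1 and Nhlh2. For Nhlh1, which lacked pool 2, pool 1 at 0.22 lay above pool 3 at 0.145.

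**Figure D3:**
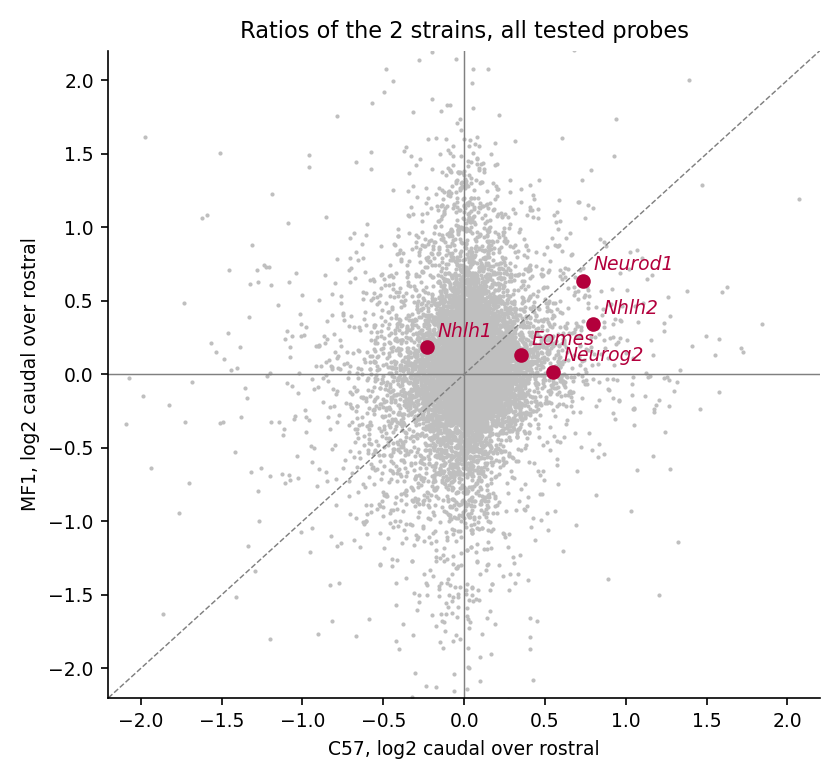
MF1 (vertical axis) against C57 (horizontal axis) log2 ratio of caudal over rostral RNA for all 11855 tested probes in grey, with the 5 tested members in red and the line of equal ratios dashed; 29 probes lie outside the axes. Neurod1 lies near the dashed line at 0.64 and 0.74, and Neurog2, Nhlh2 and Eomes lie below it.

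Genes that work with these factors were read from lists chosen with earlier results of these data known, without the members themselves. Of 16 probes for genes that proneural factors induce or that mark intermediate progenitors, 11 were positive and 5 negative, with a median of 0.10. That is 68.8% positive, against 59.2% of all tested probes. One of them, Nrn1, a neuritin that promotes neurite growth, had an unadjusted p under 0.05, at 0.50 ± 0.18 (SE, n = 5 pools). Hes6, a bHLH factor that antagonises Hes1, was the most negative at -0.28 ± 0.17. Dll1, the Notch ligand that Neurog2 induces, had 0.84, -0.48 and -0.71 in MF1 pools 1, 2 and 3, and 1.18 and -0.01 in C57 pools 1 and 2. Insm1, a zinc finger factor of intermediate progenitors, had 0.54, -0.55 and -0.65 in MF1 and 0.43 and 0.23 in C57. Both were rostral in MF1 pools 2 and 3 and caudal in MF1 pool 1, as Neurog2 was, and both were picked after their values were seen. Of the 12 probes of the target list measured in all 5 pools, 5 had these signs, against 21.0% of all 8924 such probes. Others did not: Nrn1 had 1.063 in MF1 pool 2, and Elavl4, an RNA-binding protein of neurons, had 0.656 in MF1 pool 3. The signs of Neurog2 in the MF1 pools were not particular to the target list. They were found in 4 of 5 Cajal-Retzius, 4 of 8 Notch pathway, 3 of 6 blood and 9 of 23 early neuron probes. In the E protein, Id, ventral, cranial ganglia and cortical hem lists no probe had them. Some genes stand in more than 1 list.

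Among Notch receptors, ligands and Hes repressors, which hold progenitors undifferentiated, 8 of 11 probes were positive (72.7%, against 59.2% of all tested probes). None had an unadjusted p under 0.05 in limma, and the median was 0.15. Hey1, a repressor activated by Notch, was highest at 0.39 ± 0.19 and Nrarp, a Notch feedback inhibitor, lowest at -0.42 ± 0.20. All 3 tested Id genes, whose products bind E proteins and block bHLH pairing, were positive. Id1 and Id3 had 0.76 ± 0.18 and 0.65 ± 0.15, unadjusted p 0.00676 and 0.00659, and a limma adjusted p of 0.754 each. Unlike Neurog2, they were highest in MF1 pools 2 and 3, where Id1 had 1.42 and 1.41, against 0.53 in MF1 pool 1 and 0.56 and 0.26 in C57. Id2 did not share this order, with 0.49, 0.44 and 0.05 in MF1 pools 1, 2 and 3 and 0.44 and -0.16 in C57 pools 1 and 2. The E proteins Tcf3, Tcf4 and Tcf12 had 3 positive and 1 negative probe, from -0.11 to 0.27. Other neural bHLH factors were mostly on the rostral side, with 5 of 6 probes negative and a median of -0.36. Of all 11855 tested probes, 4836 were negative. Atoh1, a factor of hindbrain progenitors, and Tal2, which lacked MF1 pool 2, had an unadjusted p under 0.05 in limma. On the rostral side 272 of all tested probes did. Atoh1 had -0.65 ± 0.23 and Olig1, a factor of ventral progenitors and oligodendrocyte precursors, -0.71 ± 0.29, from 4 pools each. Neurod6, a relative of Neurod1 in projection neurons, was the positive one at 0.36 ± 0.19, also from 4 pools. No probe of these lists passed an adjusted p of 0.05 in limma.

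**Figure D4:**
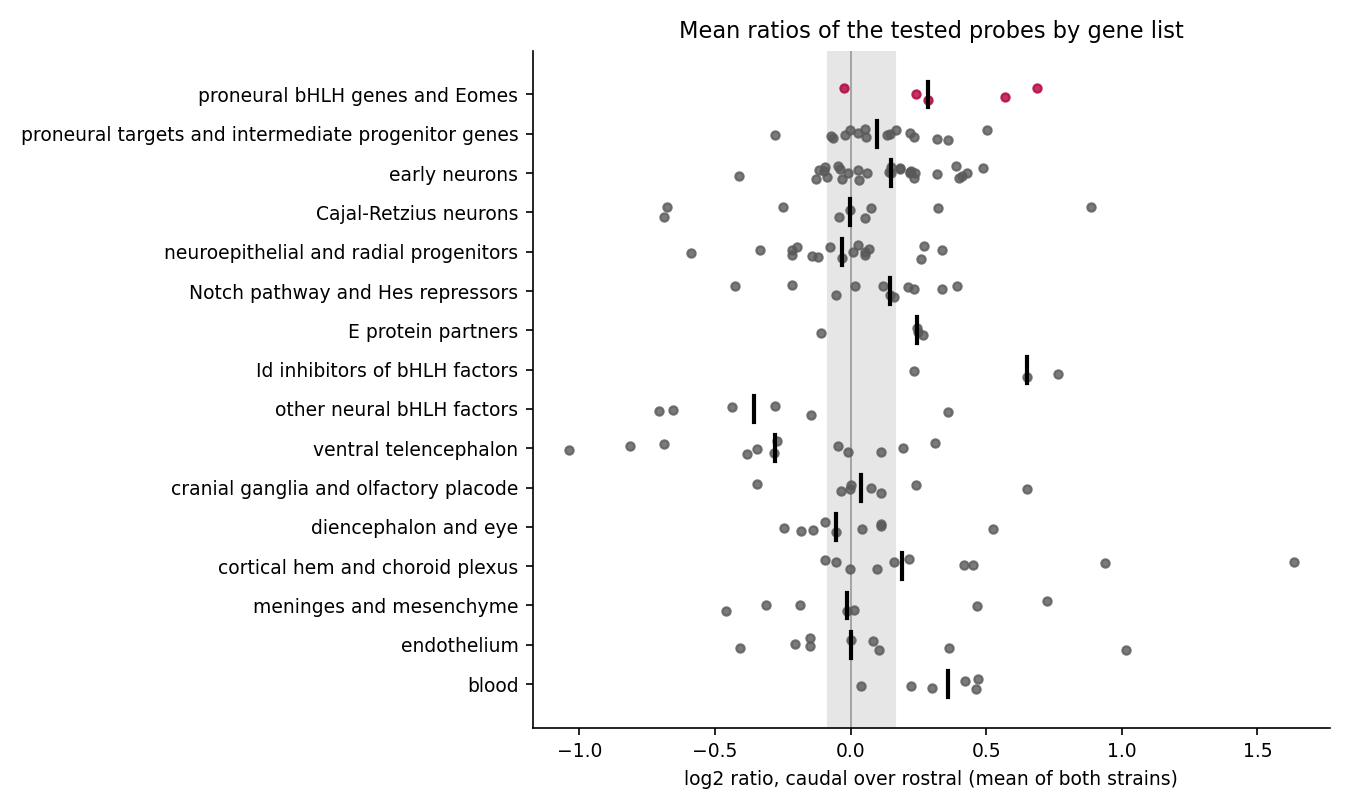
Mean log2 ratio of caudal over rostral RNA over both strains (horizontal axis) for every tested probe of each gene list, a point per probe with a black bar at the list median; points are spread vertically for legibility, and the grey band is the interquartile range of all tested probes. The tested members have a median of 0.285, Id genes lie furthest caudal by median at 0.65, and other neural bHLH factors furthest rostral at -0.36.

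Markers of cells that could share these genes were read in the same way. Of 29 early neuron probes 19 were positive (65.5%, near the 59.2% of all tested probes), the median being 0.15. Dpysl3, a collapsin response mediator, had 0.39 ± 0.12 and was positive in all 5 pools. Tubb3, the neuronal tubulin, had 0.49 ± 0.24 and Gap43, a growth cone protein, -0.41 ± 0.19. Of 17 neuroepithelial and radial progenitor probes 8 were positive (47.1%), with -0.03 as the median. Cajal-Retzius markers had 4 positive and 5 negative probes and ran from -0.69 for Ebf1 to 0.89 for Trp73. Ventral telencephalic markers, which cells of the ganglionic eminences express, were negative for 9 of 12 probes with a median of -0.28. Of all 11855 tested probes, 4836 were negative. Their low end was Dlx1, at -1.70 in MF1 and -0.38 in C57. Cranial ganglia and olfactory placode also use Neurog1, Neurod1 and Nhlh genes; of 8 probes for their other markers 5 were positive, and these ran around a median of 0.04 from -0.34 for Isl1 to 0.65 for Ret. Diencephalic and eye markers had a median of -0.05, cortical hem and choroid plexus 0.19, meninges -0.01, endothelium 0.00 and blood 0.36.

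By pool, the 4 members measured in all 5 pools (Neurog2, Eomes, Neurod1 and Nhlh2) had medians of 0.70, -0.08 and 0.12 in MF1 pools 1, 2 and 3 and of 0.87 and 0.42 in C57 pools 1 and 2. Over all 8924 probes the medians were 0.03, 0.05 and -0.01 in MF1 and 0.11 and -0.02 in C57. The proneural target list had 0.28, -0.33 and 0.00 in MF1 and 0.15 and 0.13 in C57, and early neuron markers 0.09, -0.12 and -0.05 in MF1 and 0.34 and 0.04 in C57. Notch pathway genes had 0.55, -0.07 and -0.36 in MF1 and 0.22 and 0.05 in C57. MF1 pools 2 and 3 lay below MF1 pool 1 and both C57 pools in these 3 lists, some of whose genes stand in more than 1 of them. The order was not particular to them: of 15 lists other than the members, 5 kept it, the others being blood markers and the other neural bHLH factors (only 2 probes), and 10 did not. Among those 10, radial progenitor markers had 0.01, -0.31 and -0.12 in MF1 and 0.18 and -0.15 in C57, and ventral markers -0.46, -0.47 and -0.07 in MF1 and -0.13 and -0.03 in C57. Blood markers had 0.16, 0.06 and -0.03 in MF1 and 0.85 and 0.20 in C57. All 6 blood probes, which stand for 5 genes, had a positive mean over both strains, against 59.2% of all tested probes. Of the 6, 3 had an unadjusted p under 0.05 in limma, against 2.28% of tested probes on the caudal side. Blood markers were highest in C57 pool 1, where Neurog2, Eomes, Neurod1 and Nhlh2 were highest too. That peak was not particular to blood and the members. Early neuron markers, radial progenitor markers and the median of all 8924 probes were also highest in C57 pool 1, at 0.34, 0.18 and 0.11. The target list and Notch pathway genes were highest in MF1 pool 1. The part of other cells in the members' ratios was not tested.

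**Figure D5:**
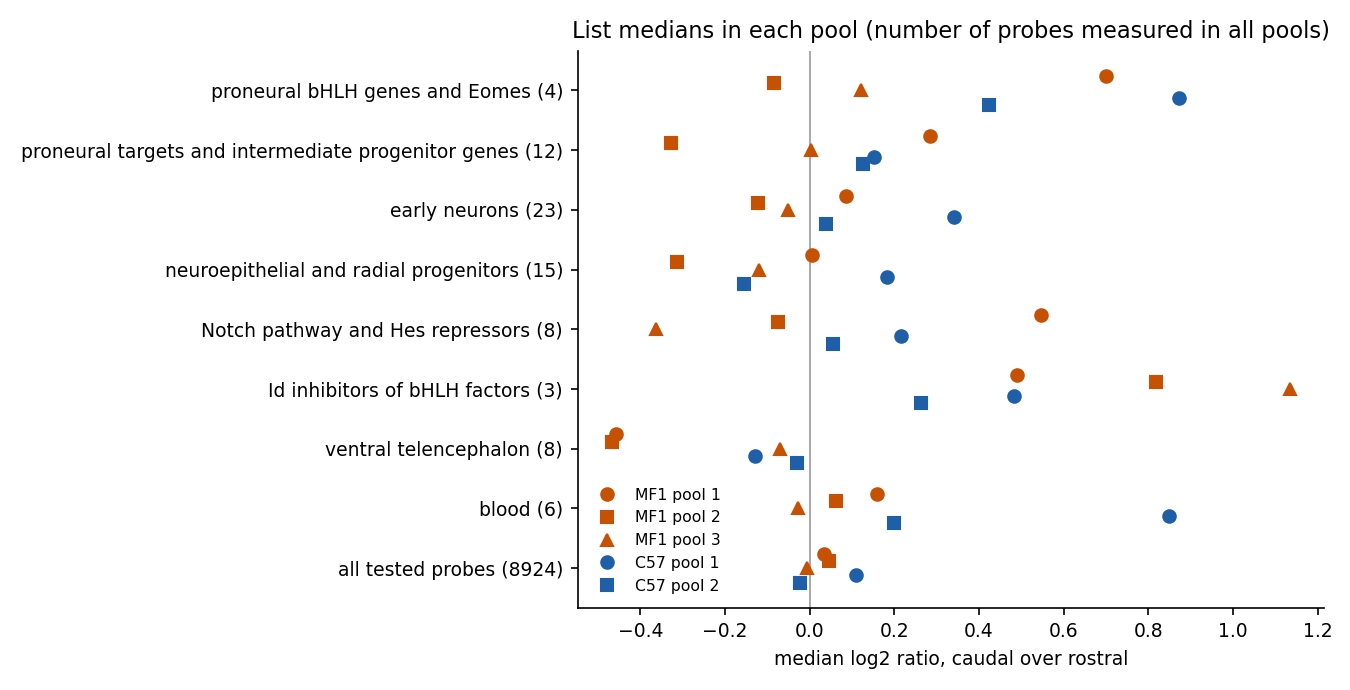
Median log2 ratio of caudal over rostral RNA (horizontal axis) of selected gene lists in each pool, MF1 pools in orange and C57 pools in blue, over probes measured in all 5 pools, whose number is in parentheses. For the members, MF1 pools 2 and 3 lie at -0.08 and 0.12, below MF1 pool 1 at 0.70 and the C57 pools at 0.87 and 0.42.

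The profiles most like those of the members were sought among 7527 other named probes measured in all 5 pools, by root mean square distance over the 5 pool values on the log2 scale. Nearest to Neurog2 was Fezf2, a zinc finger factor of the early forebrain and of deep-layer neurons, at a distance of 0.11, where the median probe was 0.55 away. Its values were 0.74, -0.14 and -0.13 in MF1 pools 1, 2 and 3 and 0.79 and 0.27 in C57 pools 1 and 2. Next was Mkrn1 at 0.13, and Eomes itself lay 0.28 and Nhlh2 0.31 from Neurog2. Nhlh2 was nearest to Nr4a2, an orphan nuclear receptor, at 0.19, and to Hey1 at 0.22, with a median distance of 0.72. Eomes was nearest to Mgat3 and Astn1, at 0.09 each, with a median distance of 0.40. The nearest to Neurod1 were further off, with Ddias at 0.26 and Pdcd4 at 0.28, with a median distance of 0.72.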

How the data were processed

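Caudal and rostral neocortex RNA of 5 pools was measured on 10 arrays. As judged from its values, the authors' deposited table is of log2 channel ratios. Per the labels' protocols, total RNA was amplified and the product labelled with Cy3 and Cy5. No source used here gives the scanner, the background correction or the normalization. The authors' columns were not centred: turned medians ran from -0.45 to 0.67. They were taken as not yet turned for the dye swap, a reading under which the first Nr2f1 probe was positive on 10 of 10 arrays. Left out were 232 control spots, among which the only annotated gene was Gapdh. Also left out were 436 values at a shared ceiling of 16.61, taken as missing on an untested reading. Arrays were turned by their dye labels and centred on their medians, and the arrays of a pool averaged. Testing needed both dye orders in 2 or more MF1 pools and in both C57 pools (11855 probes). Limma 3.58.1 in R 4.3.3 (lmFit, eBayes) fitted a coefficient per strain, with 2.58 prior and 3 residual degrees of freedom; errors are moderated SE, tests two-sided, with Benjamini-Hochberg adjustment over all tested probes at 0.05. In simulated data with 200 of 11855 probes changed, 0 were recovered at a log2 change of 0.5, 45 at 1 and 158 at 2. Of 16632 probes with 1 symbol, 15952 matched RefSeq by gene identifier and none changed name.

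Named were all members, the 2 nearest profiles of each member measured in all 5 pools, and smallest-p or most extreme probes of some lists. In the accounts of the radial progenitor, diencephalic, cortical hem, meninges, endothelium and blood lists these probes were not named. Of the ventral list only the most negative was named, and not Dlx2, which had the smallest p. Other genes were chosen after seeing values. Members and lists were chosen with earlier results of these data known. Python 3.11.15 and matplotlib 3.10.9 made the figures.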

Additional observations from a re-analysis of the deposited data

Results flagged for a closer look

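Nhlh1 in C57 pool 1, at -0.58, stood apart from its other 3 pool values, 0.22 and 0.145 in MF1 and 0.12 in C57 pool 2. Its gap to the nearest value was 0.871 of the whole range, above Dixon's 95% critical value of 0.829 for 4 values. Of its 2 arrays, the one with rostral RNA in Cy5 gave -1.05 and the one with caudal RNA in Cy5 -0.11. The same check was made for Neurog2, Neurod1, Neurod4, Nhlh2 and Eomes, and flagged none of them. Chance flags about 1 in 20 groups.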

How the results depend on the processing

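No member passed an adjusted p of 0.05 in limma under any alternative, for the mean of both strains or for MF1 minus C57; the smallest adjusted p was 0.189, for Neurod1. For the mean of both strains, Neurod1, Nhlh2, Neurog2 and Eomes kept a positive mean ratio in all 18 alternatives each, from 0.60 to 0.80, 0.41 to 0.75, 0.15 to 0.42 and 0.13 to 0.35. Nhlh1, whose mean is near 0, turned to 0.0054 without centring and to 0.17 when only caudal-in-Cy5 arrays were kept, and ran from -0.20 to 0.15 when single pools were left out. MF1 minus C57 of Neurod1 turned to 0.36 when only rostral-in-Cy5 arrays were kept, and ran from -0.28 to 0.0828 (without C57 pool 1) when single pools were left out; that of the other 4 kept its sign in every alternative run, though not its size. With single pools left out it ran from -0.81 to -0.26 for Neurog2, -0.78 to -0.21 for Nhlh2, -0.34 to -0.11 for Eomes and 0.07 to 0.76 for Nhlh1; the values nearest 0 came without C57 pool 1, and for Eomes without MF1 pool 2. On caudal-in-Cy5 arrays alone that of Eomes was -0.0118. The cause of these turns was not tested. The number of probes passing was 0 for all 4 contrasts and with any single pool left out. Scaling the arrays to a common spread gave 1 for the mean of both strains (Ttr) and 2 in C57 (Ttr and Tm7sf3). Fitting arrays singly with a dye term and the pool as a random block gave 8 and 2 (Ttr and Sfrp1 in C57). With the pool number as a replicate block, which rests on shared numbers only (deviations from strain means correlated at 0.15 for pools 1 and -0.02 for pools 2), 0 probes passed and the member means were 0.68 for Neurod1, 0.52 for Nhlh2, 0.22 for Neurog2 and 0.24 for Eomes; it could not be fitted for Nhlh1, which lacks a pool. Without centring, 367 probes had an unadjusted p under 0.05 in place of 542. Few arrays and unknown intensities limit what can be seen.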
